A study of Mus musculus with 6 samples.

Results

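S100 proteins and annexins are the calcium-dependent proteins described here, in helper T cells labelled Ezh2 KO (knockout) and wild type. The genes were chosen from the list S100a3, S100a4, S100a6, S100a10, S100a11, S100a13, Anxa1, Anxa2, Anxa3 and Anxa7, and every probe set annotated to 1 of these symbols alone was taken. The list was drawn up with the genotype differences of these arrays in view, so those differences are given below as values, with no test. Of the 10 listed genes, 9 had a probe set of their own, 16 probe sets in all, among 18193 genes on the array. The only probe set that lists S100a11 also lists other symbols, so S100a11 has no value here. All 9 genes had enough signal to enter the fit, which took genes with a reading of at least 64.4, the median of all values (the low-signal limit), on any array.

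S100 proteins are small proteins with a pair of EF-hand calcium-binding loops and no enzyme activity of their own. They act by docking onto other proteins once calcium binds. Annexins bind acidic membrane lipids when calcium rises and serve in membrane repair, vesicle traffic and linkage of membrane to actin. The families meet in defined complexes: S100a10 joins Anxa2 in a heterotetramer, and S100a11 joins Anxa1. In mouse T cells, several of these genes, S100a4, S100a6, Anxa1 and Anxa2 among them, are known as transcripts of effector and memory cells rather than naive cells.

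The study measured total RNA from 6 cultures on Affymetrix 3' arrays, 1 array per group. Naive (CD44low CD62Lhigh) CD4 T cells from the spleens of C57BL/6 mice were labelled Ezh2 KO or wild type, and cells of each genotype were grown in Th1, Th2 and unpolarized cultures. All cultures received 10 µg/ml agonistic antibody to TCRβ on the plate, 15 ng/ml IL-2 and 1 µg/ml of a stimulating CD28 antibody for 2 days, then 3 days in the same medium and cytokines without these antibodies. Th1 cultures also had 1 ng/ml IL-12 and an antibody to IL-4. Th2 cultures had 10 ng/ml IL-4 and an antibody to IFN-γ, and unpolarized cultures had the antibodies to IL-4 and IFN-γ. Ezh2 is the main methyltransferase of Polycomb repressive complex 2, which marks silent genes on histone H3. How the Ezh2 gene was deleted, in which cells, and how many mice each culture came from are not given in the sources used here.

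Values below are array intensities on the authors' linear scale, in the order Th1, Th2, unpolarized. A difference is on the log2 scale, Ezh2 KO minus wild type, given as the mean of the 3 cultures ± its SD (n = 3 array pairs). Readings under 11.3, the 20th percentile of all values, were raised to that floor before taking log2. The number of arrays limits the precision, and levels of different genes are not compared, since each probe set has its own brightness. In such bulk RNA, fewer cells of a type and less RNA per cell cannot be told apart.

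The labels were checked first on the targeted gene and on markers. Ezh2 read 4876, 4946 and 4971 in Ezh2 KO cultures, against 6553, 7677 and 7002 in wild type cultures, a difference of -0.52 ± 0.11 (limma adjusted p = 0.0437). The labels do not say whether this probe set lies in the deleted stretch, so the remaining signal does not settle the labels. In limma the call was lost with arrays centred on their medians (adjusted p = 0.0922), without the filter on dim genes (0.0881) and with any 1 culture left out (0.14 to 0.167). Array medians ran from 61.3 to 69.1. The T cell receptor complex genes Cd3e, Cd3d and Cd3g were bright on all arrays, from 1485 for Cd3e in wild type unpolarized cells upward, and Cd4 read 300.2 to 433 in Ezh2 KO and 477 to 548 in wild type. A second, dimmer Cd4 probe set read 67.2, 78.8 and 52.6 in Ezh2 KO and 139, 117 and 134 in wild type (-0.99 ± 0.39). Of the 6 tested CD4 T cell markers, 4 were higher in all 3 cultures (26.2% of all genes were). The other 2, Cd4 and Cd5 (-0.51 ± 0.16, limma adjusted p = 0.0532), were lower in all 3, and 0 of the 6 were called. Of the other cell types' markers, the CD8 T cell genes Cd8a and Cd8b1 were above the low-signal limit on all arrays. Cd8b1 read 295 to 450 in Ezh2 KO and 263 to 300 in wild type. Cd8a read 78.6 to 90.9 in Ezh2 KO and 89.1 to 152 in wild type, and neither gene passed the threshold. The granulocyte genes (4 of 4 with a named probe set, S100a8 and S100a9 among them) never reached the low-signal limit. Their summed intensity was 41.2 to 95.6 in Ezh2 KO and 32.0 to 95.2 in wild type. The 6 monocyte and macrophage markers summed to 289 to 395 in Ezh2 KO and 233 to 468 in wild type. Such sums follow the brightest probe sets, and the genes went different ways. Of the 3 tested, 0 were called: Csf1r was lower (-0.34 ± 0.15) and Cd68 higher (0.55 ± 0.24) in all 3 cultures, and Adgre1 changed sign. Cd14, never at the limit, gave 1.36 ± 0.17. The 10 stromal, epithelial and endothelial markers summed to 671 to 1217 in Ezh2 KO and 592 to 669.9 in wild type. Among them Epcam read 204, 573 and 172 in Ezh2 KO and 170, 153 and 89.7 in wild type. Krt18 read 75.8, 139 and 49.2 in Ezh2 KO and 21.7, 24.7 and 7.17 in wild type, where it never reached the limit. Of the 5 tested genes of this list 1, Krt18, was called higher (2.14 ± 0.35, limma adjusted p = 0.0213), as were 8.35% of all genes. The other keratins of the list had negative mean differences, Krt5 of -0.47 ± 0.82 and Krt8, never at the limit, of -0.33 ± 0.55. The B cell marker list summed to 319.7 to 940.1 in Ezh2 KO and 119.998 to 265 in wild type. Of its 2 tested genes 1 was called higher, as were 8.35% of all genes. This was Ms4a1, at 189, 669 and 210 in Ezh2 KO and 30.3, 63.5 and 83.7 in wild type. Cd79b (0.56 ± 0.22) did not pass, and Cd79a (-0.12) and Pax5 (-0.39) never reached the limit. The NK cell list summed to 741 to 932 in Ezh2 KO and 129 to 143 in wild type. The higher Ezh2 KO sum came from Cd160 alone, while Ncr1 and Tyrobp stayed under the limit. Cd160, the 1 tested gene of the list, was called higher (3.71 ± 0.33, limma adjusted p = 0.0143), as were 8.35% of all genes. The part of these cell types in the values below was not tested.

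The widest genotype difference of the S100 genes was that of S100a4. S100a4 binds the heavy chain of non-muscle myosin and is known for cell motility. It read 20923, 18760.1 and 18917 in Ezh2 KO cultures, against 585, 689 and 886 in wild type cultures. All 3 Ezh2 KO arrays lay far above all 3 wild type arrays, and the gap was not even across cultures: 35.8-fold in Th1, 27.2-fold in Th2 and 21.4-fold in unpolarized cells. The mean difference was 4.78 ± 0.37, or 27.5-fold. Among Ezh2 KO arrays the Th1 culture read highest, whereas among wild type arrays it read lowest.

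S100a6 (calcyclin), which binds the calcyclin-binding protein Cacybp, differed by nearly the same factor in each culture. Its intensities were 23976, 34576 and 28947 in Ezh2 KO cultures and 5386, 7791 and 6413 in wild type cultures. The groups did not overlap, and the Th2 culture read highest and the Th1 culture lowest in each genotype. The fold was 4.45 in Th1, 4.44 in Th2 and 4.51 in unpolarized cells, a difference of 2.16 ± 0.013 (4.47-fold).

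S100a10, the Anxa2 partner that has lost calcium binding, was already bright in wild type. It read 27243, 31854 and 29514 in Ezh2 KO cultures and 17424, 20567 and 17486 in wild type cultures, a difference of 0.68 ± 0.068 (1.60-fold) with no overlap. Its other probe sets went the same way. The bright one read 24990.2, 30903 and 26032 in Ezh2 KO cultures, against 13959, 14549.8 and 15119 in wild type cultures, which gives 0.90 ± 0.16. The dimmer one differed by 0.49 ± 0.094 and did not overlap either.

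S100a13, known for the release of Fgf1 and Il1a outside the classical secretory route, read 8590.2, 10766 and 10773 in Ezh2 KO cultures and 6803, 6555 and 6296 in wild type cultures. The gap was narrowest in Th1, at 1.26-fold, against 1.64-fold in Th2 and 1.71-fold in unpolarized cells, with a mean of 0.61 ± 0.24. S100a3, a gene best known from hair cuticle, was dim. It read 64.2, 69.8 and 33.0 in Ezh2 KO cultures and 30.8, 32.2 and 7.08 in wild type cultures. Since all its wild type readings lay under the low-signal limit and 1 was at the floor, its difference of 1.24 ± 0.26 depends on the floor, and it was 0.56 with a floor at the 40th percentile.

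Among the annexins, Anxa1 showed the widest gap. Anxa1 is a phospholipid-binding protein that restrains inflammation, in part by signalling through formyl peptide receptors. It read 4724, 5747 and 4020.1 in Ezh2 KO cultures, against 694, 1094 and 893 in wild type cultures. The groups did not overlap, and the fold was 6.80 in Th1, 5.26 in Th2 and 4.50 in unpolarized cells, a mean difference of 2.44 ± 0.30 (5.44-fold). A second, dim Anxa1 probe set was also higher in all 3 Ezh2 KO cultures (1.68 ± 1.06), with its wild type readings under the limit.

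Anxa2, the partner of S100a10, differed least. It read 23101, 27835 and 27043 in Ezh2 KO cultures and 21194, 22322 and 20158.1 in wild type cultures. The lowest Ezh2 KO reading was just above the highest wild type reading, and the mean difference was 0.29 ± 0.15 (1.22-fold). Its other 2 probe sets were dim or scattered, with differences of -0.64 ± 1.11 and -0.40 ± 1.79, so that the sign turns (-0.25) when all probe sets of the gene are averaged.

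Anxa7 (synexin), an annexin that binds sorcin, read 3613, 3914 and 3727 in Ezh2 KO cultures, against 2645, 2573 and 2682 in wild type cultures, a difference of 0.51 ± 0.083 (1.42-fold). This was not shared by its other probe sets, which overlapped between genotypes and gave 0.23 ± 0.26 and -0.055 ± 0.22. Anxa3 read 37.4, 72.3 and 63.0 in Ezh2 KO cultures and 24.6, 35.9 and 37.3 in wild type cultures, a difference of 0.79 ± 0.21. It was under the limit on all wild type arrays. Anxa3 and S100a3 each entered the fit only through the Ezh2 KO Th2 reading (72.3 and 69.8).

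**Figure D1:**
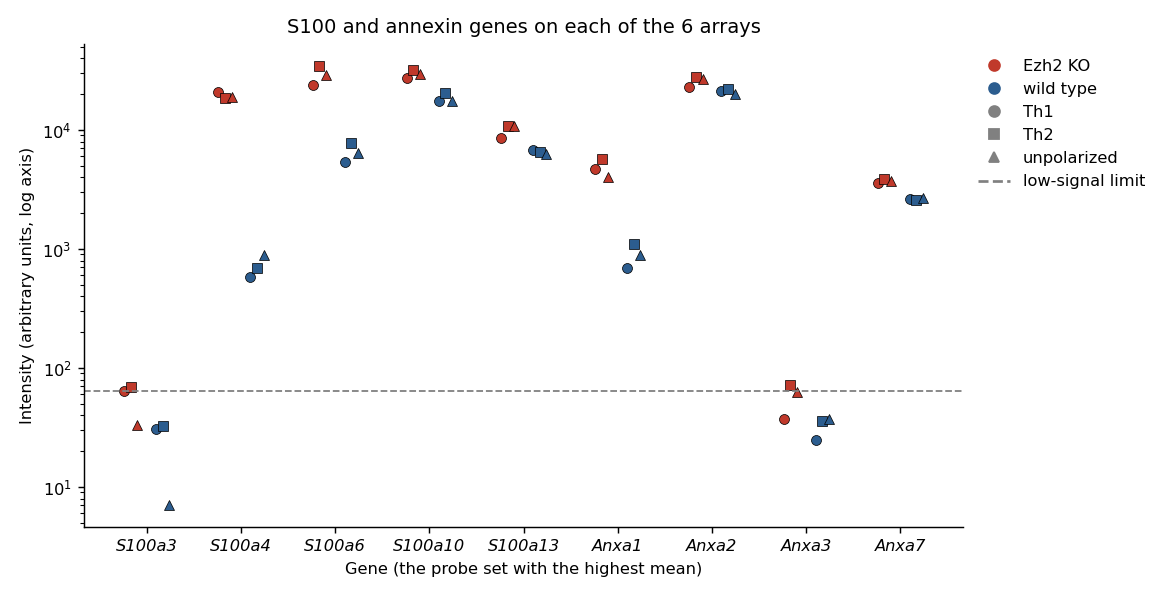
Intensity (arbitrary units, log axis) of the 9 genes on each array, with Ezh2 KO (red) left of wild type (blue) and 1 symbol per culture. S100a4, S100a6 and Anxa1 show the wide gaps, Anxa2 the narrowest (1.22-fold), and S100a3 and Anxa3 lie near or under the dashed low-signal limit of 64.4.

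In each of the 9 genes the difference was positive in all 3 cultures, and all Ezh2 KO arrays read above all wild type arrays. Of all 11572 genes tested, 26.2% were higher in all 3 cultures and 20.1% had such a gap. The median difference was 0.79 over the 9 genes and -0.073 over all genes tested. Because the list was drawn up with this contrast in view, nothing is read from these counts. Over all genes, the limma fit of genotype with culture as a block called 966 higher and 924 lower at an adjusted p of 0.05, and 868 higher and 414 lower under median centring. It called 0 genes of any kind without the filter on dim genes or with any 1 culture left out.

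The same families hold genes outside the list. They are what remained once the list had been drawn up with the genotype differences in view, so their counts are partly set by that choice and are given as a description. Of 10 other S100 genes 8 had a named probe set and 3 had enough signal, and of 8 other annexin genes 7 had a named probe set and 4 had enough signal. In limma's test, 0 of these 7 were called higher or lower in Ezh2 KO (8.35% and 7.98% of all genes were), while 4 of the 7 were higher in each culture (26.2% of all genes were). At an unadjusted p of 0.05, 3 of the 7 passed (S100a1, S100a5 and Anxa4), and 4479 of all tested genes, or 38.7%, did. Their median difference was 0.67 for the 3 S100 genes and 0.13 for the 4 annexin genes.

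Anxa4, an annexin of membrane traffic in epithelia, came closest. It read 936, 1115 and 963 in Ezh2 KO cultures and 710.3, 558 and 548 in wild type cultures, with no overlap, a difference of 0.74 ± 0.31 (limma adjusted p = 0.0566). Its second probe set gave 0.91 with no overlap, and its dimmest gave -0.013. Of 12 alternative settings, Anxa4 passed under 5, S100a1 under 2 and S100a5 under 1. S100a1, known as a calcium-handling protein of heart muscle, read 966, 1287 and 1187 in Ezh2 KO cultures and 887, 659 and 550.3 in wild type cultures (0.73 ± 0.53, limma adjusted p = 0.117). Its gap was small in Th1 (0.12) and wider in Th2 (0.97) and unpolarized cells (1.11), and its second probe set gave 0.13, 0.84 and 1.12 in the same order. S100a5, dim in wild type, differed by 0.67 ± 0.31 (limma adjusted p = 0.067). Anxa5, the annexin used to detect exposed phosphatidylserine on dying cells, was bright and overlapped between genotypes (3780 to 4839 in Ezh2 KO, 3430 to 4352 in wild type, limma adjusted p = 0.322). Anxa6 read 815 to 983 in Ezh2 KO and 890.4 to 1083 in wild type (-0.083 ± 0.13, limma adjusted p = 0.556). Anxa9 and S100a16 were dim, and their differences changed sign between cultures.

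**Figure D2:**
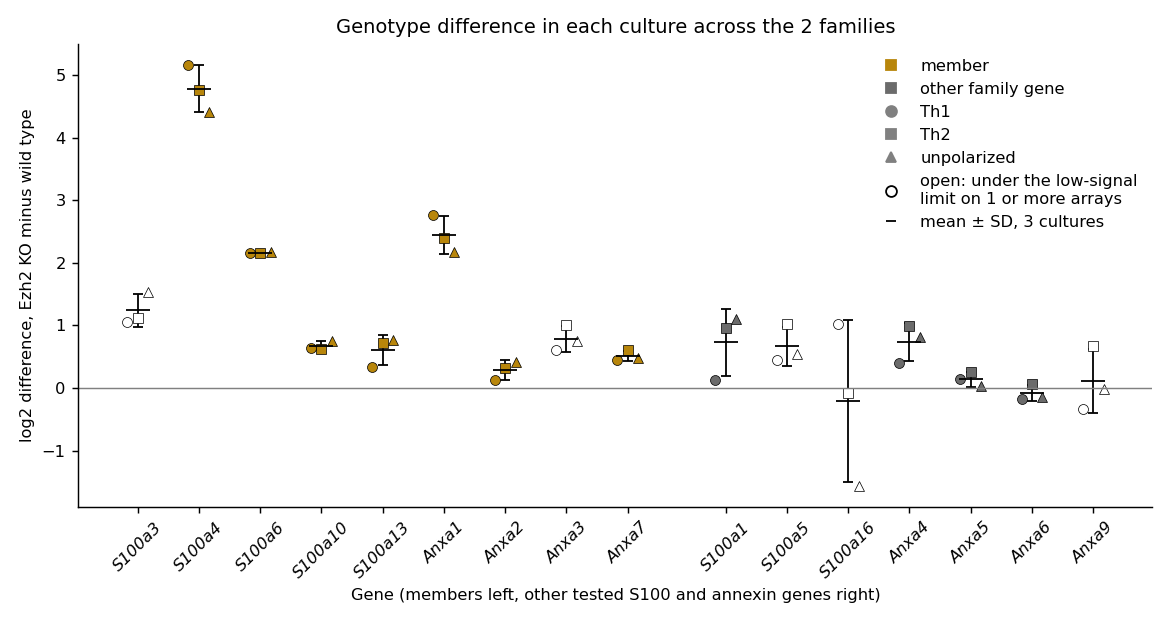
Log2 difference, Ezh2 KO minus wild type, in each culture for the 9 members (left) and the 7 other tested genes of the families (right), with the mean ± SD over 3 cultures. S100a4 lies near 4.78, Anxa1 near 2.44 and S100a6 near 2.16, while Anxa5 and Anxa6 lie near 0 and S100a16 spans both signs.

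The S100 members all lie on chromosome 3 of the mouse, whereas Anxa1, Anxa2, Anxa3 and Anxa7 lie on chromosomes 19, 9, 5 and 14. In the RefSeq gene order (GRCm38.p6) the stretch from S100a13 to S100a10 holds 100 genes, 69 of them protein coding, including the Sprr and Lce genes of the skin barrier. In that order S100a13, S100a3, S100a4 and S100a6 hold places 1, 5, 8 and 10, while S100a11 and S100a10 hold places 98 and 100. Of the 48 genes of the stretch with a named probe set, 19 were tested, 5 of them members. S100a4, with the widest gap, has S100a5 as its next tested neighbour, whose difference was 0.67 ± 0.31, and then S100a6 at 2.16. Of the 14 tested genes of the stretch outside the list, 1 passed the threshold (8.35% of all genes were higher and 7.98% lower): Sprr2d, a cornified envelope gene, fell by 2.04 ± 0.67 in Ezh2 KO, at readings of 18.1, 8.52 and 2.53 in Ezh2 KO cultures against 49.5, 42.5 and 77.2 in wild type cultures. Sprr2d entered the fit only through that last wild type reading. A further 29 named genes of the stretch never reached the low-signal limit on the 6 arrays.

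**Figure D3:**
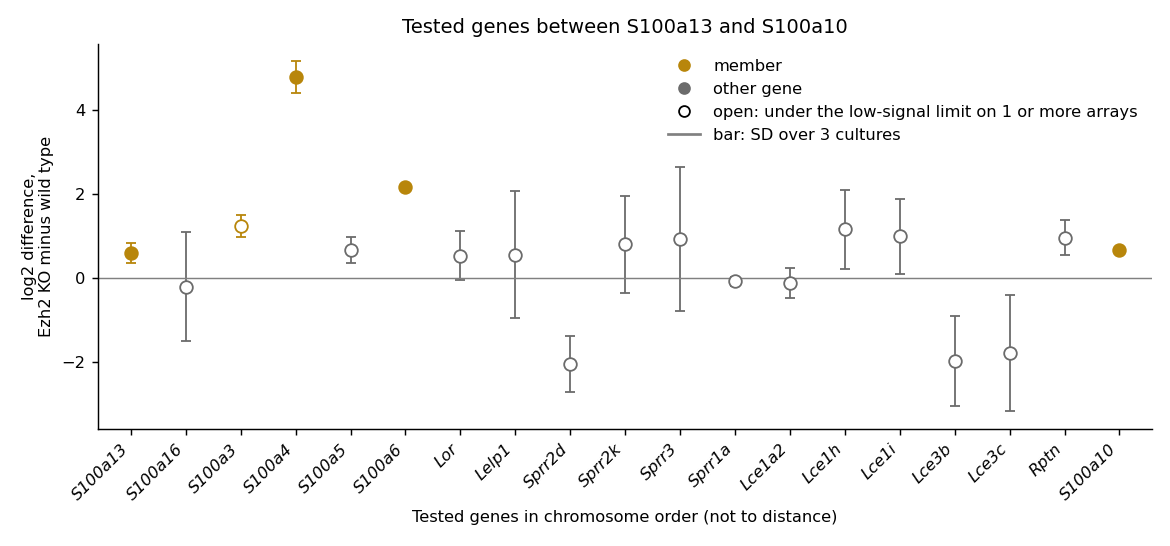
Mean log2 difference, Ezh2 KO minus wild type, with the SD over 3 cultures, for the 19 tested genes in chromosome order from S100a13 to S100a10. The bright genes (filled) are S100a13, S100a4, S100a6 and S100a10, and the others (open) were under the low-signal limit on 1 or more arrays.

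The RefSeq promoter table (GRCm38.p6) has entries for 8 of the 10 listed genes, and those that set the wide gaps beside the narrow ones are shown here. Each line gives the 250 bases before the annotated start, 5′ to 3′ on the gene's strand: S100a4 (chr3:90603520-90603769, plus strand), S100a6 (chr3:90612644-90612893, plus strand), Anxa1 (chr19:20390672-20390921, minus strand), Anxa2 (chr9:69453433-69453682, plus strand) and S100a13 (chr3:90514185-90514434, plus strand). Capitals mark letters that match any of 6 motifs, searched on both strands: the TATA box as TATAAA, the AP-1 site as TGANTCA, the GC box as GGGCGG, the STAT site as TTCNNNGAA, the T-box site as TCACACC and the GATA site as AGATAA.
S100a4: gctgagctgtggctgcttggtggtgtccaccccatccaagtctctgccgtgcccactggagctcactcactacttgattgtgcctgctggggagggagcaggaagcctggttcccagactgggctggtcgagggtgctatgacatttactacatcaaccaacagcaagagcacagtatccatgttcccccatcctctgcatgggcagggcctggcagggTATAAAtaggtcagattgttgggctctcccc
S100a6: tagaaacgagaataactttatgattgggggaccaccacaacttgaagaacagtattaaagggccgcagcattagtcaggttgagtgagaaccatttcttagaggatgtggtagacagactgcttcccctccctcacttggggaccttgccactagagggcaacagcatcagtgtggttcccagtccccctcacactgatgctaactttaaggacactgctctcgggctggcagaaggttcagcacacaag
Anxa1: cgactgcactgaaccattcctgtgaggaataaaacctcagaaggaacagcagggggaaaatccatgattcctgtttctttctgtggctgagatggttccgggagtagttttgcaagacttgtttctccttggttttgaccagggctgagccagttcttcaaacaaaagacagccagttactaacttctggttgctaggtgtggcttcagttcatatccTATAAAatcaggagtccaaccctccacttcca
Anxa2: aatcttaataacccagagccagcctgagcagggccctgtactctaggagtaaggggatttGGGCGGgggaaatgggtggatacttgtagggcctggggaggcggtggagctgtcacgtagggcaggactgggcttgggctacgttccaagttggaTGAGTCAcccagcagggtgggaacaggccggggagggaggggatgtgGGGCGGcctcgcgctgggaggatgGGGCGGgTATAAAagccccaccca
S100a13: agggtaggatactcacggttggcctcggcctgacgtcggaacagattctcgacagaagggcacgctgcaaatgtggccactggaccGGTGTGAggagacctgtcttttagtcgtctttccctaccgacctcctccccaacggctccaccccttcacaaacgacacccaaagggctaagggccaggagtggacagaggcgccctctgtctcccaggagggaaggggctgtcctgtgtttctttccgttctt

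TATAAA starts 31 bases before the start of S100a4 and 32 bases before that of Anxa1. Of the table's 32851 promoters, 1.75% have it in forward direction 25 to 35 bases before the start, and 12.4% have it anywhere in the window on either strand. In Anxa2 it starts 17 bases before, beside 3 GC boxes (32.7% of promoters have at least 1) and 1 AP-1 match 95 bases before the start (6.75% of promoters). S100a13 has 1 T-box match (3.33% of promoters), and S100a6 has none of the motifs searched. The STAT motif (7.02% of promoters) and the GATA motif (9.99%) have no match in these 5 windows. The windows also differ in CpG pairs, with 2 in S100a4, 3 in S100a6 and 2 in Anxa1, against 9 in Anxa2 and 13 in S100a13, where the median over all promoters was 6 with quartiles of 2 and 16. Anxa7, not printed, has annotated starts with 16 and 2 CpG pairs, and S100a3 has 4 starts with 0 to 5. These are descriptions of a few sequences beside genotype differences in whose view the genes were listed, and they were not tested.

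The choice of the list names no culture contrast, but it was made with earlier results of these data known. Culture was tested with genotype as a block. The adjusted test found no gene of any kind: limma called 0% of 11572 genes for Th1 against unpolarized, 0% for Th2 against unpolarized and 0% for Th2 against Th1, and 0 of the 9 members in each. At an unadjusted p of 0.05 the shares of all genes were 5.46%, 6.7% and 7.59%, and the members passing it were 2, 1 and 2 of 9. For Th1 against unpolarized these were S100a3 (1.20) and Anxa3 (-0.68). For Th2 against unpolarized it was S100a3 (1.30). S100a3 and Anxa3 were dim, and each passed the filter only through its Ezh2 KO Th2 reading, so nothing is read from their culture differences. The wild type part of the S100a3 values also rests on an unpolarized reading at the floor. Within Ezh2 KO, S100a3 gave 0.96 for Th1 and 1.08 for Th2 against unpolarized. Within wild type it gave 1.44 and 1.51.

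For Th2 against Th1 the members under an unadjusted p of 0.05 were S100a6 and Anxa3. Since Anxa3 passed the filter only through its Ezh2 KO Th2 reading, nothing is read from its difference. S100a6 read 34576 in Th2 and 23976 in Th1 cells of Ezh2 KO, and 7791 in Th2 and 5386 in Th1 cells of wild type. The difference was 0.53 in each genotype (0.53 ± 0.094, SE, 1.44-fold), with an unadjusted p of 0.00627 and a limma adjusted p of 0.55. The adjusted p fell to 0.0417 when limma's prior followed intensity and ran from 0.308 to 0.716 under the other alternatives. Anxa1 was higher in Th2 than in Th1 cells of each genotype, by 0.28 in Ezh2 KO and 0.66 in wild type (limma adjusted p = 0.667). S100a10 was 0.23 higher in Th2 in Ezh2 KO and 0.24 in wild type (limma adjusted p = 0.682). For S100a4 the signs opposed each other, since Th2 minus Th1 was -0.16 in Ezh2 KO and 0.24 in wild type. Whether a culture difference itself differs between genotypes was not tested, since each group had 1 array.

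**Figure D4:**
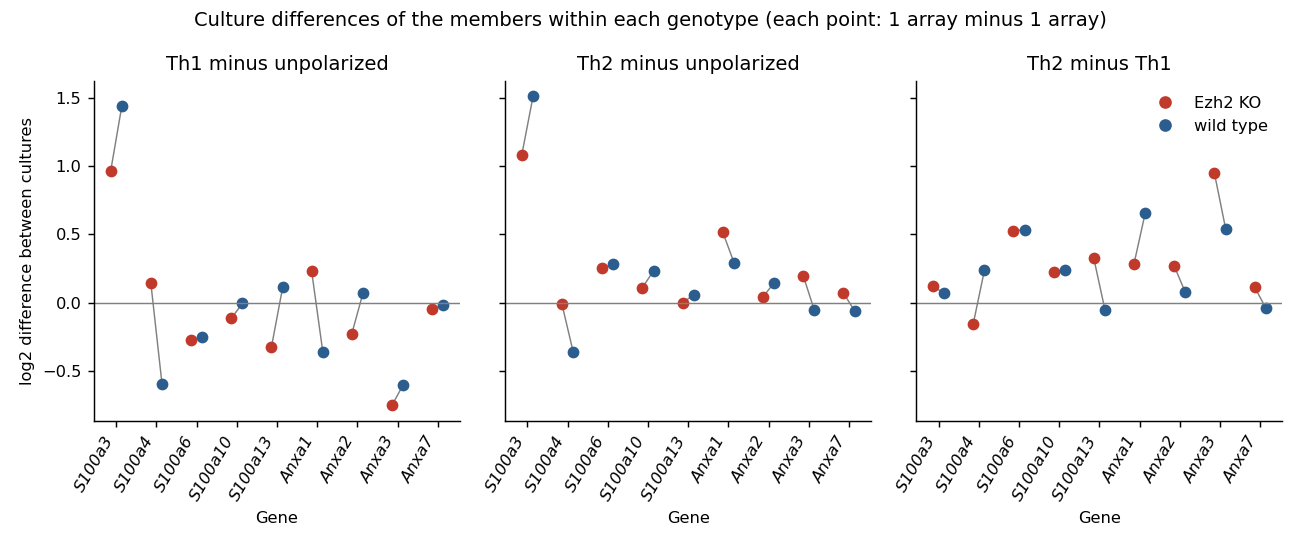
Log2 difference between cultures for the 9 members, within Ezh2 KO (red, left) and within wild type (blue, right), each point being 1 array minus another. S100a6 shows nearly equal values in both genotypes (0.53 for Th2 minus Th1), S100a4 shows opposite signs in both contrasts that involve Th1, and the wide S100a3 values come from dim readings.

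Proteins that bind S100s and annexins were followed through a list of 16 partners and receptors, of which 9 were tested. In the genotype contrast 1 was higher (8.35% of all genes) and 1 lower (7.98%), and the list's median was -0.15. Ahnak, the giant scaffold protein that binds the S100a10 and Anxa2 complex, read 5826, 6903 and 5437 in Ezh2 KO cultures and 1589, 2037 and 2133 in wild type cultures, and rose by 1.66 ± 0.28 (limma adjusted p = 0.0218). Of its other 3 probe sets, 2 gave 1.79 and 1.86 from dim wild type readings and the dimmest gave -1.01. Ager, the receptor RAGE that several S100 proteins engage, fell by 1.32 ± 0.099 (limma adjusted p = 0.02) to readings near the limit: 53.8, 83.6 and 62.3 in Ezh2 KO cultures, against 145, 197 and 153 in wild type cultures. Its second, dim probe set gave -0.039. The membrane repair gene Myof (1.36 ± 1.43, limma adjusted p = 0.196) and the S100a13 cargo Fgf1 (-1.02 ± 0.86, limma adjusted p = 0.14) were dim and did not pass. The S100a4 target Myh9 overlapped between genotypes, at 10677, 11447 and 11255 in Ezh2 KO cultures and 10296, 13085 and 13821 in wild type cultures. The formyl peptide receptor gene Fpr2, which serves Anxa1, never reached the limit, with 50.7 as its highest value.

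Other EF-hand and calpain genes served as a comparison list. Of 13 listed, 9 were tested, and 2 rose (8.35% of all genes) and 0 fell (7.98%), with a median of 0.26. Capn2, the large subunit of the calcium-activated protease m-calpain, read 9318, 10822 and 8672 in Ezh2 KO cultures and 3189, 3699 and 3678 in wild type cultures, a rise of 1.44 ± 0.18 (limma adjusted p = 0.0208). Efhd2 (swiprosin), an actin-binding EF-hand protein, rose by 0.60 ± 0.10 (limma adjusted p = 0.0363). Gca (grancalcin) gave 1.30 ± 0.70 from dim wild type readings and Pvalb 0.50 ± 0.64, and neither passed (limma adjusted p = 0.0707 and 0.272). The Anxa7 partner sorcin (Sri) read 7958, 9544 and 8619 in Ezh2 KO cultures and 7799, 8873 and 7453 in wild type cultures, with overlap.

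A list of effector and memory T cell transcripts was taken, since several of the members are known from the same cells. It too was chosen with earlier results of these data known. All 10 of its genes had enough signal to test. Of these 3 rose (8.35% of all genes) and 1 fell (7.98%), with a median of 0.28. Lgals3, which encodes the lectin galectin-3, read 18835, 23778 and 22593 in Ezh2 KO cultures and 1080.5, 448 and 593 in wild type cultures, and rose by 5.04 ± 0.82 (32.8-fold, limma adjusted p = 0.02). Cd44, the hyaluronan receptor whose low level was used to sort the naive cells, rose by 1.39 ± 0.12 (limma adjusted p = 0.02). The integrin chain Itgb1 rose by 0.88 ± 0.14 (limma adjusted p = 0.0276), a call lost when all its probe sets were averaged. Capg, an actin-capping protein, fell by 0.55 ± 0.17 (limma adjusted p = 0.0492), a call kept under 4 of 12 alternatives and lost under median centring, with no floor above 1, with all probe sets averaged and with no culture block (its dim second probe set gave 1.30). Vim, Emp3, Crip1, Lgals1, Tagln2 and Lmna did not pass, and Crip1 was closest to 0 (-0.054 ± 0.051). Lmna gave -0.083 by its probe set of highest mean. Another Lmna probe set read 139, 252 and 189 in Ezh2 KO cultures and 19.3, 41.1 and 16.7 in wild type cultures (2.99 ± 0.46). The remaining Lmna probe sets were dim and gave -1.36, -0.92 and -0.27. None of the calls in these 3 lists was made without the filter on dim genes or with any 1 culture left out.

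**Figure D5:**
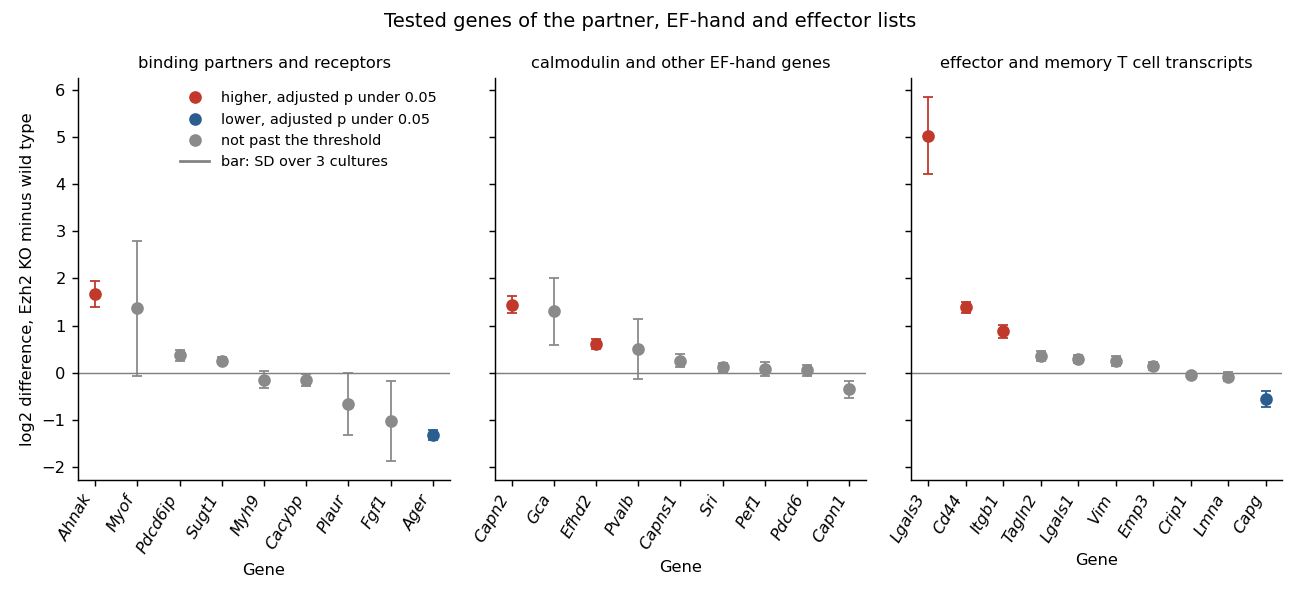
Mean log2 difference, Ezh2 KO minus wild type, with the SD over 3 cultures, for the tested genes of the partner, EF-hand and effector lists. Genes past the threshold are red (higher) or blue (lower), led by Lgals3 at 5.04, Ahnak at 1.66 and Capn2 at 1.44, while most genes of each list (grey) did not pass.

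For the S100 and annexin members with the highest mean reading, the genes with the closest pattern over the 6 arrays were sought among 11563 tested genes outside the list, by the root mean square difference of their log2 values after centring each gene on its mean. Those closest to S100a10 were D16Ertd472e (0.035), Sdf2l1 (0.049), which serves protein folding in the endoplasmic reticulum, and Ubl3 (0.051). Those closest to Anxa2 were Rrad (0.023), the small GTPase gene Rac1 (0.024) and Bola2 (0.028). Rac1 read 9390 to 10774 in Ezh2 KO and 8004 to 8717 in wild type. How often so close a match arises for other genes was not measured, and the matches are given as a description.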

How the data were processed

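Intensities, 1 per probe set and array on a linear scale, are the authors' deposited values, and Affymetrix Expression Console is named per the submitters' processing notes, with no version. How probes were summarized is not stated in the labels. Leaving out the top and bottom 2% of values, each array averaged 500.003, which shows prior scaling to 1 target. GEO's platform annotation gave 1 symbol to 34945 of 45101 probe sets, several to 932 and none to 9160, and 64 were controls. Entrez identifiers of 34741 matched RefSeq (GRCm38.p6), used for names, gene order and promoters.

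Values were floored at the 20th percentile (11.3) before log2. Each gene was represented by its probe set of highest mean, and 11572 genes with a reading at or above the median of all values (64.4) were tested. Genotype effects, with culture as an additive block, came from 1 limma fit over the 6 arrays (limma 3.58.1, R 4.3.3, 2 residual degrees of freedom, prior 1.66), with Benjamini-Hochberg adjustment over all genes and a threshold of 0.05. The fit was tested on simulated data. The labels do not say that arrays of 1 genotype came from separate mice, so p-values speak only of spread among these arrays, which may be technical.

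The members and the gene lists were chosen with earlier results of these data known. Named genes were all members with every probe set, Ezh2, the tested S100 and annexin genes outside the list, up to 4 tested genes of each other list with the largest genotype differences, and the 3 genes of closest pattern. Myh9, Fpr2, Sri, the other effector genes, the marker genes, Sprr2d and the closest genes of S100a4, S100a6 and Anxa1 were named for their roles or after their values were seen. Alternatives were other scalings, floors, filters, probe set rules and priors, no block, and leaving out each culture.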

Additional observations from a re-analysis of the deposited data

Results flagged for a closer look

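With 1 array per group, a gene was set aside for a closer look where its genotype difference was at least 0.3 on the log2 scale in opposite directions in different cultures. These differences between cultures were not tested. Among the tested S100 and annexin genes, S100a16 was higher in Ezh2 KO by 1.02 in Th1 cultures and lower, at -1.56, in unpolarized cultures. Its readings were 148, 110.1 and 45.4 in Ezh2 KO Th1, Th2 and unpolarized cultures, against 73.0, 117 and 134 in the matching wild type cultures. Anxa9 gave 0.67 in Th2 and -0.33 in Th1 cultures, from readings of 78.3 to 89.0 in Ezh2 KO and 55.9 to 110 in wild type. Both genes lie near the low-signal limit of 64.4. By its probe set of highest mean, no member of the list met this rule, for genotype in different cultures or for culture in different genotypes. A scattered Anxa2 probe set met it for genotype, at 0.56 in Th1, 0.70 in Th2 and -2.47 in unpolarized cultures.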

How the results depend on the processing

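The genotype contrast gave 1890 genes in limma (966 higher and 924 lower), and 868 higher and 414 lower under median centring. The count was 3228 (1349 higher) when genes had to exceed the 60th percentile by mean, 3983 (1777 higher) with an intensity trend in the prior and 2838 (1267 higher) with no culture block. It was 0 without a filter and 0 with any 1 culture left out, where 4711 and 2952 to 3227 genes had an unadjusted p under 0.05. The Th2 against unpolarized count of 0 became 5, and the Th2 against Th1 count of 0 became 16, with the intensity trend. They were 0 under the other alternatives, as was Th1 against unpolarized under all of them. The cause of these moves was not tested. With a culture left out, the fit also has fewer arrays.

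The genotype difference kept its sign in 8 of the 9 members under all 8 alternatives that could change it. Anxa2 turned to -0.25 when its probe sets, 2 of them dim or scattered, were averaged. S100a4 ranged from 4.59 to 4.96, S100a6 from 2.12 to 2.21, Anxa1 from 2.06 to 2.58, and S100a3 from 0.56 to 1.47. The labels carry no replicate numbers, so arrays were paired by culture alone, and the count with no culture block is the one without that pairing. Signal over background limits S100a3 and Anxa3.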

Other observations

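The genes whose 6 array values lay closest in pattern to the members with wide gaps were looked up after those values had been seen. For S100a4 they were Ahr, the aryl hydrocarbon receptor gene (root mean square difference of centred log2 values 0.31), the magnesium transporter gene Slc41a2 (0.33) and Coch (0.33). Ahr read 916, 1241 and 935 in Ezh2 KO Th1, Th2 and unpolarized cultures, against 33.3, 58.2 and 45.2 in wild type cultures, all 3 under the low-signal limit. For S100a6 they were Cela1 (0.098), the integrin chain gene Itgb3 (0.12) and Itpripl2 (0.15). Itgb3 read 2583, 4002 and 2974 in Ezh2 KO cultures and 582, 1015 and 810 in wild type cultures, so that, as for S100a6, Th2 read highest and Th1 lowest in each genotype. For Anxa1 they were Pilrb1 (0.10), Igfbp5 (0.11) and the phospholipase gene Plcg2 (0.17). Plcg2 read 1138, 1347 and 1085 in Ezh2 KO cultures and 208, 283 and 182 in wild type cultures. Most of each match is the genotype difference that these genes share, and the matches were not tested.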
